A study of Gallus gallus with 26 samples.

Results

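Late-stage ovarian tumours of hens (Gallus gallus) were compared with early-stage ovarian tumours at the level of messenger RNA. The comparison took 9 of the 13 messenger RNA libraries of the series, 4 of early tumour and 5 of late tumour, chosen by the stage in their labels, and all 25079 genes of the expression table. Of these genes, 16130 had enough counts to be tested and 3013 had no count in any library. The other 4 libraries came from normal ovary, and their values are given here as background. They also entered the main fit, and so shaped its filter, its scaling and the spread behind its p-values. A fit of the 9 tumours alone called 0 genes. The labels name the tissue and the stage: no breed, age, tumour type or treatment is given, and nothing says that the samples of a stage came from separate hens, so that p-values here speak of the spread among the samples alone. Tumours are named here by stage and by the number in their code: early tumours 9, 11, 12 and 21, and late tumours 3, 7, 23, 25 and 31. Values per sample always follow that order.

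Laying hens develop ovarian tumours spontaneously, and for this reason the hen is used as a model of ovarian cancer. Tumours at an early stage are confined to the ovary, and those at a late stage have spread within the abdomen. A tumour is a tissue of several cell types: besides the tumour cells it holds fibroblasts and the collagen they lay down, blood vessels lined by endothelium, smooth muscle and immune cells, and an ovarian tumour may hold remaining follicles with oocytes and granulosa cells. RNA from a whole piece of such tissue mixes all of these.

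No gene passed the test between the stages at an adjusted p of 0.05 in edgeR, which is 0% of the 16130 genes, and the smallest adjusted p was 0.736, shared by 2930 genes. At an unadjusted p under 0.05 there were 1023 genes (6.34% of those tested), of which 385 were higher in late tumour (2.39% of the genes tested) and 638 were lower (3.96%). Those lower in late tumour had a median log2 fold change of -1.03 and a median level of 11.6 CPM (counts scaled to a common library size after TMM scaling). Those higher in late tumour differed less, by a median of 0.48, and were more abundant, at a median of 49.5 CPM. The number at an unadjusted p under 0.05 depended on single tumours: it was 321 of 16326 without early tumour 9, 430 of 16335 without early tumour 21, 577 of 16088 without late tumour 3 and 2613 of 16352 without early tumour 11. It was 1289 of 16362 without early tumour 12, 749 of 16067 without late tumour 23, 866 of 16062 without late tumour 31, 942 of 16069 without late tumour 7 and 1325 of 16060 without late tumour 25. Counts of list members given below are to be read beside these table-wide counts and beside the shares of 2.39% higher and 3.96% lower. Whatever their p, 8145 of the 16130 genes tested (50.5%) had a higher fitted level in late tumour. Counts of higher and lower list members are to be read beside that share. DESeq2 called 9 of 21966 genes (0.041%), 4 higher and 5 lower, and had 1340 at an unadjusted p under 0.05. The voom test called 0 genes, with a smallest adjusted p of 0.196. It had 2972 of 16130 at an unadjusted p under 0.05, against 1023 in edgeR, so that this count depended on the test. In 174 genes (1.08% of those tested) every late tumour stood above every early tumour, and in 82 (0.508%) every late tumour stood below. A random split of 9 samples into 4 and 5 separates a gene fully, in either direction, with a probability of 0.0159. Both shares together come to about that, so full separation of a gene named below is to be read beside it.

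**Figure D1:**
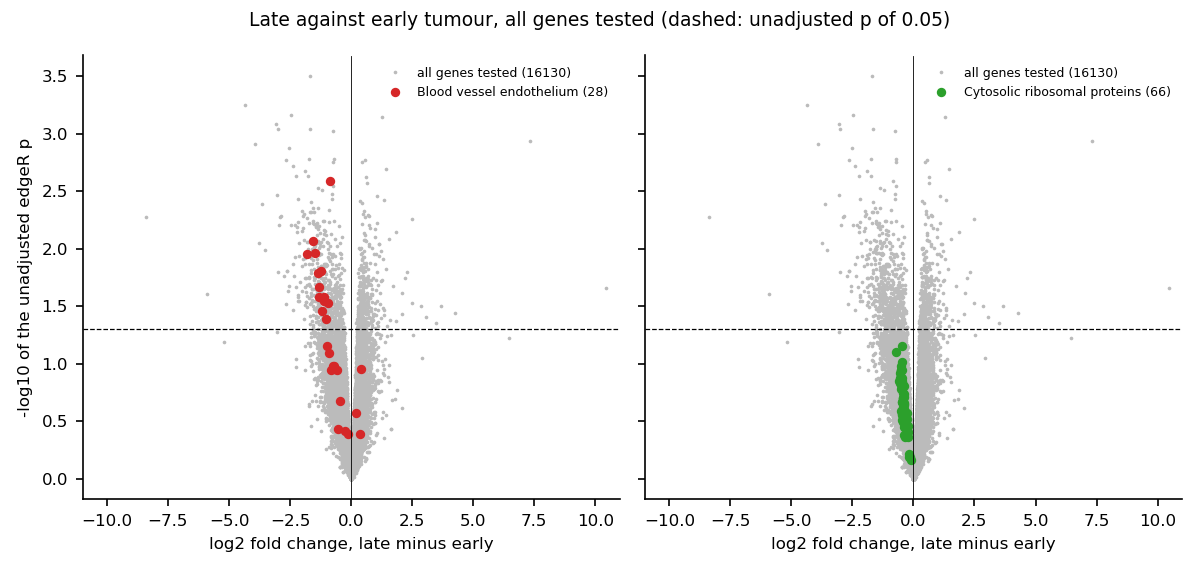
Each point is a gene, with its log2 fold change (late minus early) on the x axis and the -log10 of its unadjusted edgeR p on the y axis; grey points are all 16130 genes tested, and the coloured points are 28 genes of blood vessel endothelium on the left and 66 genes of ribosomal proteins on the right. Of the vessel genes 14 lie above the dashed line (unadjusted p of 0.05), all on the lower side, whereas all 66 ribosomal protein genes lie on the lower side and under the line; no gene passed an adjusted p of 0.05 in edgeR.

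The main axis of difference among the tumours did not follow the stage. The first principal component of the 9 tumours held 52.4% of the variance in log2 CPM. Early tumours 9 and 21 stood at one end, at 78.3 and 67.0, and late tumour 3 at the other, at -89.8. Early tumours 11 and 12 lay at -45.8 and -9.84. Late tumours 7, 23, 25 and 31 lay at 7.45, 1.84, 22.9 and -32.0, so that the stages overlapped. The median correlation of log2 CPM was 0.952 between early tumours, 0.967 between late tumours and 0.958 across the stages. Total counts ran from 19393500 to 20027100 in early and from 18755000 to 20118600 in late tumour. No difference passed the test for these totals, the number of genes with at least 10 counts, the share of the 100 most abundant genes or the share of genes annotated as ribosomal RNA: the exact two-sided permutation p-values were 0.675, 0.310, 0.294 and 0.730 (adjusted over the 4 measures 0.730, 0.619, 0.619 and 0.730), where 0.0159 is the smallest that 4 against 5 samples can give. The 100 most abundant genes took 16.4 ± 3.95% of the counts in the 4 early tumours and 14.1 ± 2.17% in the 5 late ones (mean ± SD), with the highest shares in early tumours 9 and 21.

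Late tumour 3 was the library with the most genes apart from the others. In it, 314 genes with a mean of at least 10 CPM stood more than 1 log2 unit below each of the other 8 tumours, against 0 to 14 such genes in any other tumour. Among genes at 10 CPM or more in a library, early tumour 9 had the most standing as far above all other tumours, 38, against 0 to 11 elsewhere. Because early tumour 9 and late tumour 3 formed the ends of the first component and belong to different stages, the gene groups that differed most are given below for all 9 tumours and again without these 2 libraries.

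**Figure D2:**
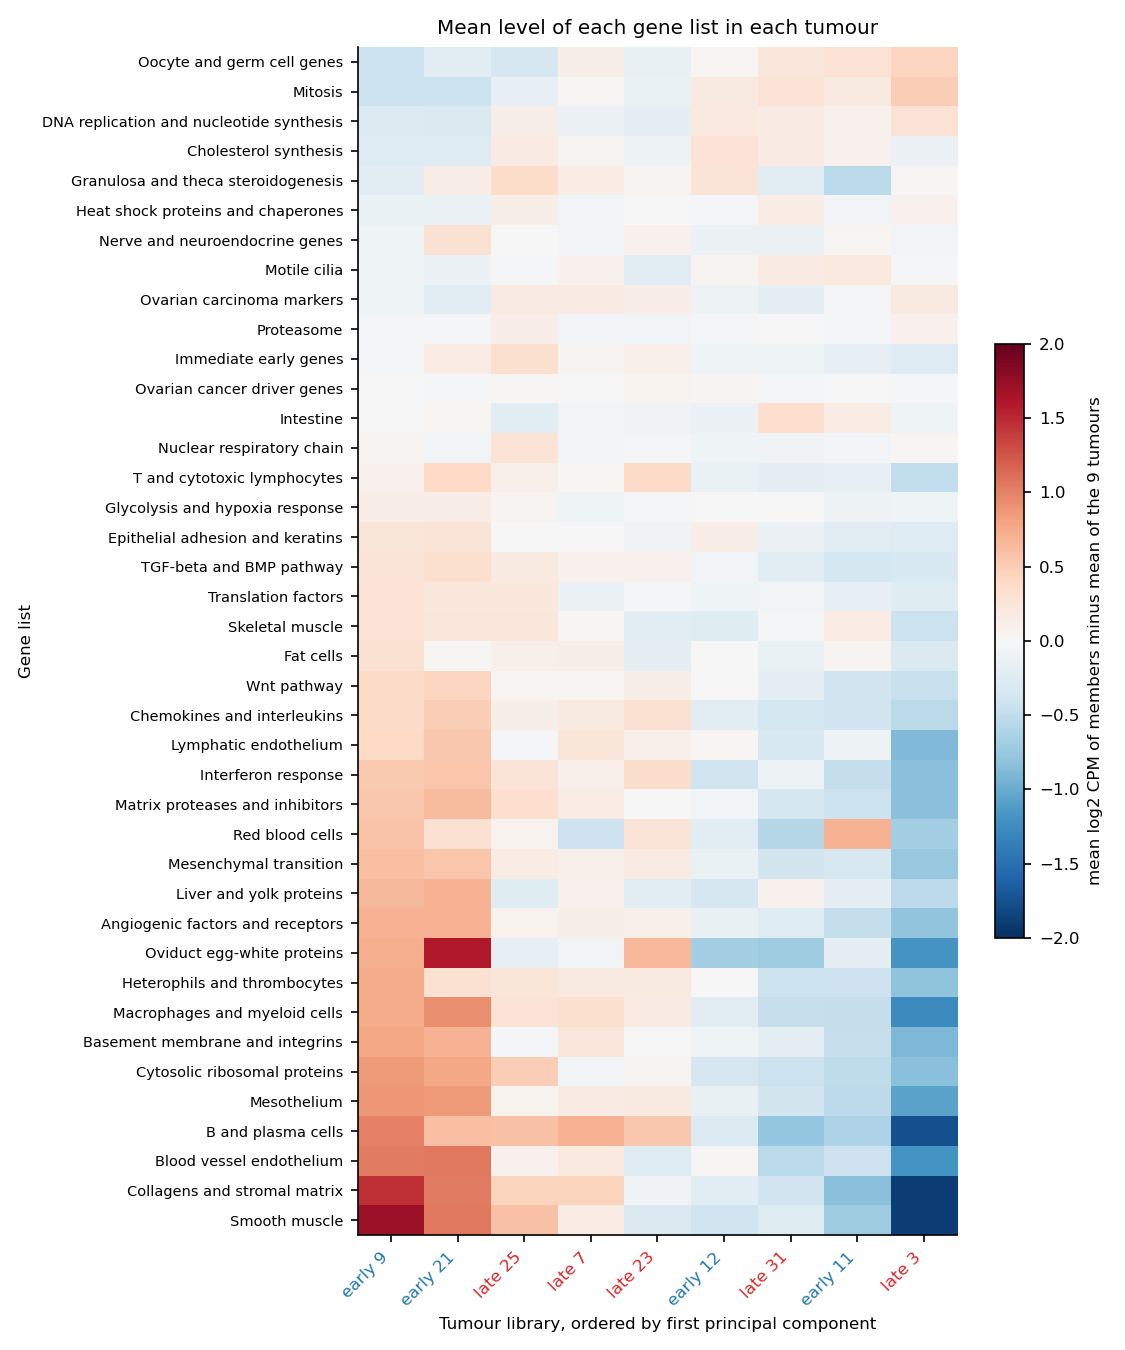
Each row is a gene list and each column a tumour (early in blue, late in red), ordered by the first principal component; the colour is the mean log2 CPM of the list's tested members minus their mean over the 9 tumours. Smooth muscle, collagens, blood vessels, B cells and ribosomal proteins are high in early tumours 9 and 21 at the left and low in late tumour 3 at the right, while mitosis and oocyte genes run the other way.

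The label of an ovarian tissue was checked against genes of known cell types. Oocyte genes were present in every tumour: GDF9, a growth factor made by the oocyte, stood at 193, 404, 262 and 199 CPM in the early tumours and 541, 243, 225, 174 and 402 CPM in the late tumours, beside 196, 250.3, 155 and 299.7 CPM in normal ovary. AMH, a hormone of granulosa cells, stood at 166, 163, 361 and 236 CPM in the early tumours and 289, 238, 266, 287 and 318 CPM in the late tumours. EPCAM, an adhesion molecule of epithelia, stood at 572, 1125, 839 and 537 CPM in the early tumours and 1427, 990.2, 1001, 958 and 1069 CPM in the late tumours, beside 548, 514, 682 and 1069.6 CPM in normal ovary. All 3 genes were thus read in every tumour, at levels that overlapped those of normal ovary. Of the carcinoma markers, WT1, a transcription factor of ovarian surface cells and serous carcinoma, ranged from 293 to 356 CPM in early and from 318 to 447 CPM in late tumour, and FOLR1, the folate receptor, from 60.0 to 167 and from 75.1 to 131 CPM. PAX2, MUC16 (the CA125 antigen) and WFDC2 (HE4) had fewer than 10 counts in all 9 tumours. OVAL, the gene of ovalbumin and a marker of oviduct glands, reached at most 0.929 CPM in any tumour. These levels describe the samples and were not tested between tumour and normal ovary here.

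Most genes of blood vessels had a lower fitted level in late tumour, though the stages overlapped. Of the 28 tested members of the endothelial list, 25 had a lower fitted level in late tumour, the median log2 fold change was -0.92 against 0.00 over all genes tested, and 14 members were lower at an unadjusted p under 0.05, where 3.96% of all genes were. None passed an adjusted p of 0.05 in edgeR, DESeq2 or voom. Every late tumour lay below every early tumour in 0 of the 28, where 0.508% of all genes tested did so. The 14 were PECAM1, CDH5, TEK, TIE1, ENG, SOX7, SOX18, ROBO4, PLVAP, VWF, TAL1, CD34, ECSCR and STAB1, with log2 fold changes of -1.81 to -0.84. They span the junctions of the endothelium, its receptors, its transcription factors and the clotting protein it stores. The 14 genes were read in the same libraries and may not be separate observations. In this bulk tissue, fewer endothelial cells and less RNA per endothelial cell cannot be told apart.

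CDH5, the cadherin that joins endothelial cells, stood at 101, 61.8, 64.2 and 106 CPM in the early tumours and 31.2, 67.5, 49.5, 45.3 and 38.6 CPM in the late tumours. CDH5 had a log2 fold change of -0.84 (SE 0.23; edgeR unadjusted p = 0.00260, adjusted p = 0.736). All late tumours but tumour 7 lay below the lowest early tumour, and tumour 7 lay above early tumours 11 and 12. Normal ovary stood at 61.1, 83.6, 56.9 and 61.6 CPM, above all late tumours but tumour 7. PECAM1, an adhesion molecule at the same junctions, stood at 139.7, 21.6, 42.2 and 87.4 CPM in the early tumours and 5.92, 36.2, 25.3, 33.03 and 24.1 CPM in the late tumours. PECAM1 had a log2 fold change of -1.55 (SE 0.51; edgeR unadjusted p = 0.00860, adjusted p = 0.736). Every late tumour lay below early tumours 9, 12 and 21 and below every normal ovary (51.5, 80.4, 46.2 and 43.8 CPM), while early tumour 11 lay inside the late range. TEK, the receptor for angiopoietins, stood at 30.04, 4.96, 14.9 and 31.4 CPM in the early tumours and 2.13, 14.0, 8.93, 7.81 and 7.08 CPM in the late tumours. TEK had a log2 fold change of -1.34 (SE 0.49; edgeR unadjusted p = 0.0163, adjusted p = 0.736). It was again early tumour 11 that overlapped, since only late tumour 3 was lower. For ENG, a coreceptor for TGF-beta on endothelium, the values were 50.3, 11.001, 26.1 and 74.1 CPM in the early tumours and 7.69, 23.9, 15.9, 27.2 and 15.2 CPM in the late tumours. ENG had a log2 fold change of -1.17 (SE 0.47; edgeR unadjusted p = 0.0271, adjusted p = 0.736). Early tumours 11 and 12 lay inside the late range and early tumours 9 and 21 above it.

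The most abundant endothelial genes by TPM did not follow this order. EMCN, a sialomucin of vessels and the most abundant member at a mean of 149.9 TPM over the tumours, stood at 294, 354, 261 and 309 CPM in the early tumours and 250.3, 315, 269.7, 259.5 and 305 CPM in the late tumours. The stages overlapped for EMCN, with the lowest value in late tumour 3 and the highest in early tumour 11. EGFL7, a protein secreted by endothelium, stood at 65.6, 84.8, 84.1 and 63.0 CPM in the early tumours and 101, 78.1, 62.1, 91.7 and 89.6 CPM in the late tumours. SOX17, a transcription factor of arterial endothelium that is also made in other tissues, stood at 19.7, 29.5, 24.0 and 17.6 CPM in the early tumours and 44.6, 30.9, 26.5, 33.9 and 16.6 CPM in the late tumours. Late tumour 3, which had the lowest CDH5, PECAM1 and TEK, had the highest SOX17 and EGFL7. Together with APLNR, SOX17 and EGFL7 were the 3 members with a higher fitted level in late tumour, at log2 fold changes of 0.38, 0.42 and 0.18.

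**Figure D3:**
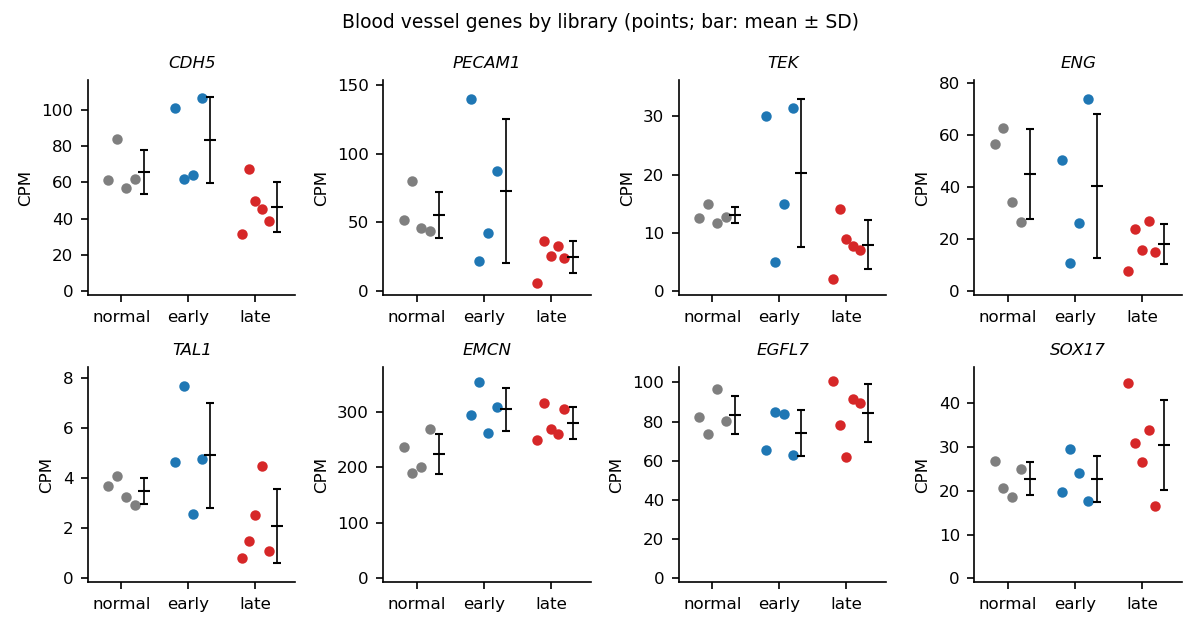
CPM of 8 endothelial genes in each library (points) of normal ovary (grey, n = 4), early tumour (blue, n = 4) and late tumour (red, n = 5), with bars for the mean ± SD; the y axes start at 0. CDH5, PECAM1, TEK, ENG and TAL1 are lower in most late tumours than in early tumours 9 and 21, whereas EMCN, EGFL7 and SOX17 overlap between the stages.

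The endothelial list's mean level, set to 0 over the 9 tumours, was 1.03, -0.41, 0.03 and 1.06 in the early tumours and -1.19, 0.19, -0.25, 0.08 and -0.53 in the late tumours on the log2 scale, so the stages overlapped. Without early tumour 9 and late tumour 3 the median log2 fold change was -0.58, the only one of 10 lists with a median under -0.3 that remained under -0.3. This setting keeps early tumour 21, which had the highest endothelial level of all 9 tumours. Early tumours 11 and 12, at -0.41 and 0.03, lay inside the range of the remaining late tumours. Leaving out early tumours 9 and 21 together was not tried. That cut is arbitrary: the red cell list, which also holds TAL1, went from -0.39 to -0.27. Without these 2 tumours, 2 endothelial members were lower at an unadjusted p under 0.05 (141 of 16272 genes). Leaving out one tumour, 4 members were lower at that p without early tumour 9, 5 without early tumour 21, 7 without late tumour 31, 8 without late tumour 3 and 9 without late tumour 23. Leaving out one of the others gave 15 to 18. The median ran from -1.15 to -0.66 over the tumours left out. Over all genes and in either direction, the count at that p was 321 of 16326 without early tumour 9, 430 of 16335 without early tumour 21 and 2613 of 16352 without early tumour 11. The summed level of the list was 735 to 1307 CPM in early tumour, 541 to 901 in late tumour and 772 to 1043 in normal ovary. Other cell types moved along the same tumours, as given for stroma and muscle below, and their part in the endothelial values was not tested.

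Factors and receptors that guide vessel growth were mixed. Of 37 tested members 27 had a lower fitted level in late tumour, with a median log2 fold change of -0.42; 5 were lower at an unadjusted p under 0.05 and 1 higher, and the median was -0.09 without early tumour 9 and late tumour 3. The lower count was 12 without early 11, 2 without late 3 or late 31, 1 without early 9 and 0 without early 21, and the higher count was 3 without early 11, 2 without early 21 or late 7 and 0 without late 3. The smallest p belonged to FGF1, a growth factor for fibroblasts and endothelium, at 6.39, 1.87, 2.28 and 8.66 CPM in the early tumours and 2.08, 1.45, 1.09, 1.58 and 2.17 CPM in the late tumours. FGF1 had a log2 fold change of -1.52 (SE 0.51; edgeR unadjusted p = 0.00997, adjusted p = 0.736). All late tumours lay below early tumours 9, 12 and 21, and late tumours 3 and 31 lay above early tumour 11. EDNRA, the receptor for endothelin on smooth muscle and stroma and one of the 3 most abundant members, stood at 627, 86.9, 127 and 704 CPM in the early tumours and 33.2, 287, 400.1, 319 and 137 CPM in the late tumours. Its ligand EDN1 stood at 73.7, 129, 87.0 and 68.9 CPM in the early tumours and 202, 123, 132, 92.1 and 83.5 CPM in the late tumours, with late tumour 3 lowest in the receptor and highest in the ligand. APLN, the ligand of the apelin receptor, stood at 35.5, 109.7, 54.0 and 38.8 CPM in the early tumours and 143, 62.9, 47.4, 53.6 and 67.6 CPM in the late tumours. Late tumour 3 was again the highest, followed by early tumour 11. In the lymphatic list 9 of 13 members were lower with a median of -0.37 (-0.05 without the 2 tumours), and its most abundant member, VEGFC, the growth factor of lymph vessels, stood at 49.3, 41.3, 42.5 and 53.5 CPM in the early tumours and 97.5, 54.8, 41.8, 41.4 and 57.7 CPM in the late tumours.

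Stroma and smooth muscle genes varied widely within each stage. Of the 35 tested collagen and matrix genes 34 had a lower fitted level in late tumour, with a median log2 fold change of -0.69. At an unadjusted p under 0.05 only 2 were lower, where 3.96% of all genes were. That count was 12 without early 11 (2613 of 16352 over all genes, in either direction), 6 without early 12, 4 without late 25, 1 without late 23 and 0 without early 9, early 21, late 3 or late 31. The median was 0.04 without early tumour 9 and late tumour 3. All 22 smooth muscle genes had a lower fitted level, with a median of -0.78, 1 of them at an unadjusted p under 0.05 (6 without early 11, 3 without early 12 and 2 without late 7 or late 25), and the median was -0.10 without these 2 tumours. COL3A1, a fibrillar collagen of loose tissue, stood at 3632, 390.3, 821 and 2589 CPM in the early tumours and 167, 1299, 667, 1632 and 629 CPM in the late tumours. Early tumours 9 and 21 exceeded every late tumour, while early tumours 11 and 12 lay inside the late range. In normal ovary it stood at 5061, 2703, 2051 and 1377 CPM, so that this gene varied within each of the 3 groups. DCN, a small proteoglycan that binds collagen, stood at 1326, 144, 322 and 1051 CPM in the early tumours and 62.7, 517, 447, 554 and 266 CPM in the late tumours, in nearly the same order of tumours. The summed level of the collagen list was 2176 to 14156 CPM in early tumour, 1274 to 6741 in late tumour and 5035 to 18869.6 in normal ovary.

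FN1, which links cells to collagen, had one of the 2 smallest p-values of the list, at 922, 66.5, 123 and 711 CPM in the early tumours and 23.9, 237, 129, 160.2 and 96.5 CPM in the late tumours. FN1 had a log2 fold change of -1.82 (SE 0.76; edgeR unadjusted p = 0.0319, adjusted p = 0.736). The early tumours spanned the whole late range but for late tumour 3. THY1, a surface protein of fibroblasts, stood at 137, 17.9, 36.7 and 189 CPM in the early tumours and 13.2, 43.0, 36.1, 54.6 and 22.0 CPM in the late tumours. THY1 had a log2 fold change of -1.49 (SE 0.60; edgeR unadjusted p = 0.0259, adjusted p = 0.736). Here too early tumours 11 and 12 lay inside the late range and 9 and 21 above it. Among smooth muscle genes, TPM2, a tropomyosin of the contractile filament, stood at 715, 121, 172 and 489 CPM in the early tumours and 94.4, 208, 173, 326 and 165 CPM in the late tumours, beside 956, 1538, 406 and 179 CPM in normal ovary. Normal ovaries 3 and 4 exceeded every tumour for TPM2, and the late tumours lay inside the early range but for late tumour 3. PLN, which controls the calcium pump of muscle, had the smallest p of the muscle list, at 57.4, 13.7, 23.8 and 49.4 CPM in the early tumours and 4.10, 21.6, 15.8, 13.7 and 11.3 CPM in the late tumours. PLN had a log2 fold change of -1.44 (SE 0.45; edgeR unadjusted p = 0.00603, adjusted p = 0.736). The late tumours lay below early tumours 9, 12 and 21, with early tumour 11 among them.

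**Figure D4:**
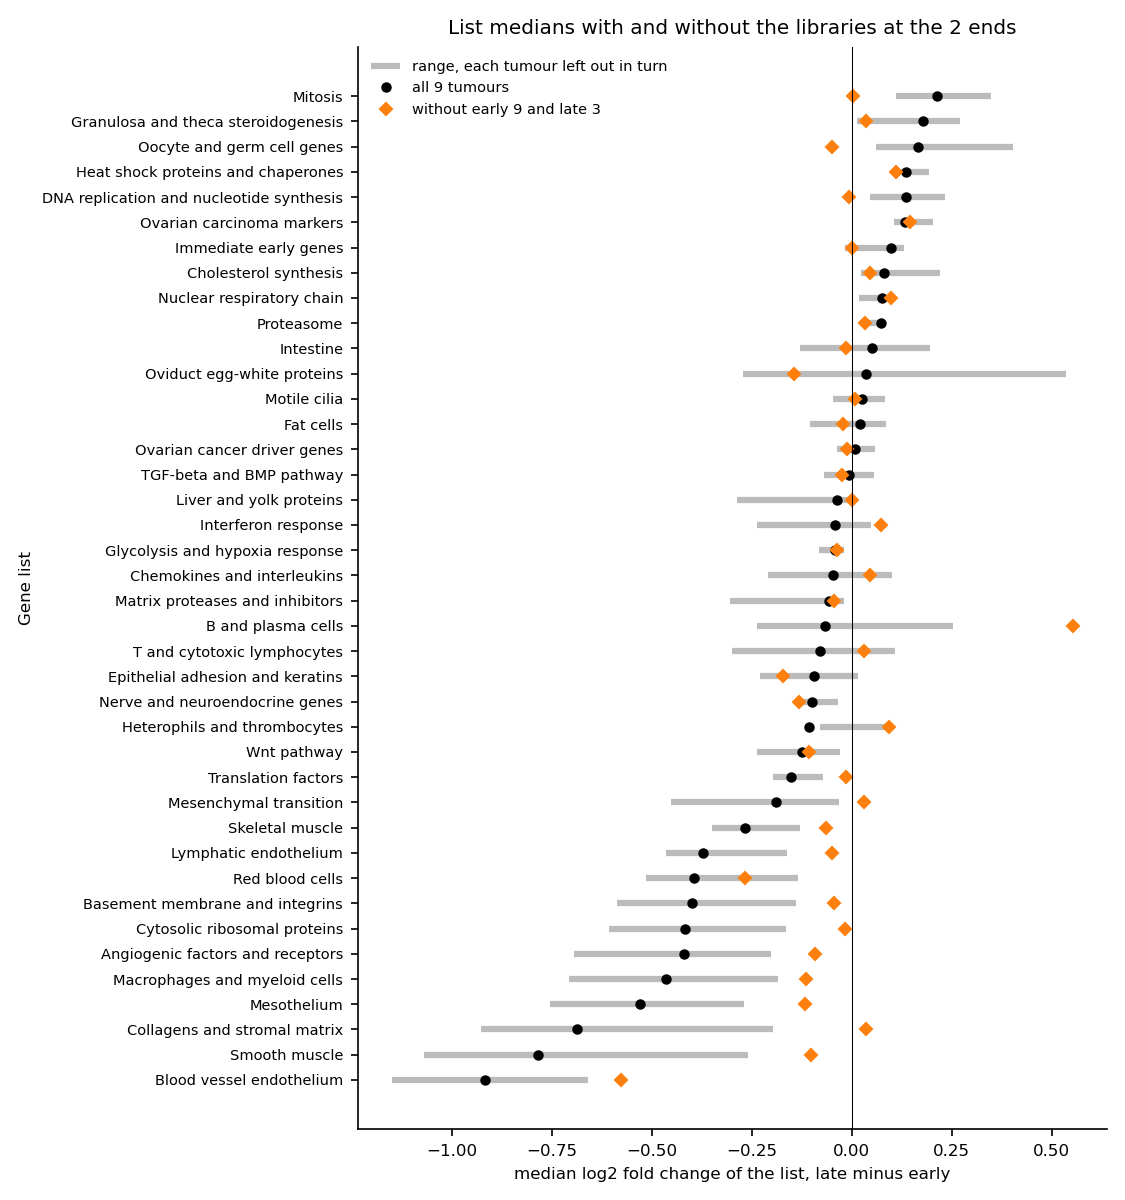
Median log2 fold change (late minus early, x axis) of each of 40 gene lists over all 9 tumours (black points), over the 7 tumours without early tumour 9 and late tumour 3 (orange diamonds), and the range when each tumour is left out in turn (grey bars). The medians of collagens, smooth muscle and ribosomal proteins lie between -0.78 and -0.42 with all tumours and between -0.10 and 0.04 without the pair. That of blood vessel endothelium goes from -0.92 to -0.58 and that of red blood cells from -0.39 to -0.27.

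The basement membrane is the sheet of laminin and collagen IV under epithelia and endothelia, which cells grip through integrins. Of 34 tested members of this list 27 had a lower fitted level in late tumour, with a median of -0.40. At an unadjusted p under 0.05, 10 of the 34 were lower, where 3.96% of all genes were. Among the 10 were the laminin chains LAMA2, LAMA3 and LAMB2, the linkers NID1 and HSPG2, and the integrin subunits ITGA3, ITGA5, ITGA8 and ITGB4. The lower count was 1 without early tumour 21, 2 without early tumour 9, 2 without late tumour 3, and 4 without late tumour 23 or 31. The median was -0.04 without early tumour 9 and late tumour 3. The 3 most abundant members overlapped between the stages. ITGB1, the beta chain shared by most matrix receptors, stood at 445 ± 106 CPM in the 4 early tumours (mean ± SD) and 442 ± 40.1 in the 5 late ones. For COL4A5, a collagen IV chain, the values were 287 ± 46.8 CPM in the 4 early tumours (mean ± SD) and 344 ± 29.6 in the 5 late ones, and for DAG1, the laminin receptor dystroglycan, 143 ± 21.5 CPM in the 4 early tumours (mean ± SD) and 143 ± 24.7 in the 5 late ones.

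Matrix proteases and their inhibitors had 15 of 25 members lower and a median of -0.06, which was -0.31 without late tumour 25, -0.13 without early tumour 11, -0.12 without late tumour 7 and -0.02 without late tumour 23. At an unadjusted p under 0.05, 3 were lower (8 without early 11, 5 without early 12 and 0 without early 9 or early 21). TIMP2, an inhibitor of matrix metalloproteinases, stood at 327, 55.8, 93.0 and 308 CPM in the early tumours and 29.4, 113, 87.7, 130.2 and 67.6 CPM in the late tumours. TIMP2 had a log2 fold change of -1.19 (SE 0.54; edgeR unadjusted p = 0.0452, adjusted p = 0.736). ADAMTS5, which cuts the proteoglycan aggrecan, stood at 147, 38.6, 52.9 and 139.9 CPM in the early tumours and 12.9, 45.3, 63.8, 40.5 and 42.1 CPM in the late tumours. ADAMTS5 had a log2 fold change of -1.21 (SE 0.45; edgeR unadjusted p = 0.0180, adjusted p = 0.736). Both were highest in early tumours 9 and 21 and lowest in late tumour 3, and the remaining tumours overlapped. MMP9, a gelatinase that leukocytes make, stood apart in a single library: it reached 109 CPM in late tumour 25 against 33.8 CPM at most in the other tumours. Of the 17 tested genes linked with mesenchymal transition 12 were lower, with a median of -0.19 (0.03 without early tumour 9 and late tumour 3). VIM, the intermediate filament of mesenchymal cells, stood at 1203 ± 133 CPM in the 4 early tumours (mean ± SD) and 1283 ± 89.6 in the 5 late ones, and MSN, which ties the membrane to actin, at 309.9 ± 24.8 CPM in the 4 early tumours (mean ± SD) and 311 ± 16.1 in the 5 late ones. WNT5A, a ligand of the Wnt family, stood at 101, 87.7, 57.9 and 78.1 CPM in the early tumours and 57.6, 62.6, 73.5, 50.6 and 41.4 CPM in the late tumours. WNT5A had a log2 fold change of -0.51 (SE 0.18; edgeR unadjusted p = 0.0135, adjusted p = 0.736). Every late tumour lay below early tumours 9, 11 and 21, and early tumour 12 lay inside the late range.

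The lining of the body cavity, the mesothelium, was read through 16 tested genes, 10 of them lower in late tumour, with a median of -0.53 (-0.12 without early tumour 9 and late tumour 3) and 2 at an unadjusted p under 0.05 (5 without early 11, 1 without late 3, late 7 or late 31 and 0 without early 9 or early 21). KRT7, a keratin of mesothelium and of simple epithelia, stood at 698, 60.0, 166 and 617 CPM in the early tumours and 28.9, 288, 179.8, 288 and 91.2 CPM in the late tumours. The 2 members with the smallest p were C3, a complement component, at 16.3, 1.23, 2.42 and 19.4 CPM in the early tumours and 0.727, 4.28, 1.82, 4.12 and 2.26 CPM in the late tumours, and RSPO1, which strengthens Wnt signals, at 62.5, 8.10, 12.6 and 44.5 CPM in the early tumours and 4.31, 14.0, 24.1, 5.91 and 11.3 CPM in the late tumours. All 3 were highest in early tumours 9 and 21, and late tumour 3 was the lowest. The edgeR values were a log2 fold change of -1.89 (SE 0.73; edgeR unadjusted p = 0.0214, adjusted p = 0.736) for C3 and a log2 fold change of -1.42 (SE 0.62; edgeR unadjusted p = 0.0381, adjusted p = 0.736) for RSPO1.

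Immune genes also varied within each stage. Macrophage and myeloid genes had 21 of 25 members lower and a median of -0.46, which was -0.11 without early tumour 9 and late tumour 3. At an unadjusted p under 0.05, 2 members were lower (7 without early 11, 1 without late 31 and 0 without early 9 or early 21), where 3.96% of all genes were. CD74, the chain that guides MHC class II molecules, was the most abundant at 1424, 155, 231 and 1231 CPM in the early tumours and 91.0, 486, 563, 461 and 243 CPM in the late tumours. CTSS, a protease of antigen-presenting cells, stood at 88.7, 12.4, 34.5 and 87.6 CPM in the early tumours and 6.80, 35.8, 48.5, 33.03 and 21.4 CPM in the late tumours. In both, early tumours 9 and 21 exceeded all late tumours, and early tumour 11 was below all late tumours but tumour 3. MRC1, the mannose receptor of macrophages, stood at 27.1, 18.6, 23.2 and 32.7 CPM in the early tumours and 9.45, 24.4, 20.2, 11.6 and 12.6 CPM in the late tumours. MRC1 had a log2 fold change of -0.70 (SE 0.27; edgeR unadjusted p = 0.0217, adjusted p = 0.736). LY86, which pairs with a receptor of B cells and macrophages, stood at 28.7, 8.59, 14.2 and 31.6 CPM in the early tumours and 1.97, 13.2, 8.73, 14.1 and 8.76 CPM in the late tumours. LY86 had a log2 fold change of -1.15 (SE 0.46; edgeR unadjusted p = 0.0246, adjusted p = 0.736). Early tumours 11 and 12 lay inside the late range for MRC1, and early tumour 11 alone did so for LY86.

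Antibody genes varied widely within late tumour. JCHAIN, which joins secreted antibodies and is made by plasma cells, stood at 1406, 409.7, 362 and 659.8 CPM in the early tumours and 21.6, 948, 1149.6, 500.4 and 359 CPM in the late tumours. IGLL1, annotated as an immunoglobulin light chain gene, stood at 3507, 855, 753 and 1773 CPM in the early tumours and 90.0, 1955, 1645, 2039 and 539.8 CPM in the late tumours. Late tumour 3 held the lowest value of both, far under the other 8 tumours, while late tumours 7, 23 and 25 lay between early tumours 9 and 11. The B and plasma cell list had 8 of 14 members lower and a median of -0.07, and 0.55 without early tumour 9 and late tumour 3, which turns its direction. T cell genes had 13 of 20 members lower with a median of -0.08, and 0 at an unadjusted p under 0.05. CD3E, part of the T cell receptor complex, ranged from 7.17 to 11.4 CPM in early and from 4.99 to 10.9 CPM in late tumour. The most abundant member of that list, EOMES, is a transcription factor of T cells that the ovary may also make, and it stood at 192, 361, 262 and 209.6 CPM in the early tumours and 446, 284, 249, 200.3 and 386 CPM in the late tumours, highest in late tumour 3.

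Interferon-response genes showed no common direction, with 16 of 25 members lower and a median of -0.04 that was 0.02 under library-size scaling. LY6E, an interferon-induced surface protein and the member with the smallest p, stood at 587, 182, 157 and 632 CPM in the early tumours and 127, 239, 254, 191 and 205 CPM in the late tumours. LY6E had a log2 fold change of -0.94 (SE 0.37; edgeR unadjusted p = 0.0225, adjusted p = 0.736). The late tumours lay below early tumours 9 and 21, and early tumours 11 and 12 lay inside their range. TNFSF10, the death ligand TRAIL, was the abundant chemokine or cytokine gene with the smallest p, at 368, 152, 155 and 276 CPM in the early tumours and 112, 158, 153, 134 and 125 CPM in the late tumours. TNFSF10 had a log2 fold change of -0.80 (SE 0.28; edgeR unadjusted p = 0.0135, adjusted p = 0.736). The late tumours lay below early tumours 9 and 21 and overlapped 11 and 12. CXCL12, a chemokine of stromal cells, stood at 477, 159, 165 and 351 CPM in the early tumours and 155, 480.4, 350.2, 322 and 162 CPM in the late tumours. Heterophil and thrombocyte genes had 6 of 9 tested members lower. Among them F13A1, a clotting factor that macrophages also make, stood at 479 CPM in early tumour 9 and at no more than 113 CPM in any other tumour.

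Red cell genes were lower in late tumour in 14 of 19 members, with a median of -0.39 (-0.27 without early tumour 9 and late tumour 3), and 4 were lower at an unadjusted p under 0.05: SPTB, SLC4A1, RHAG and TAL1. The count ran from 2 without early tumour 11 or late tumour 31 to 7 without late tumour 23. SPTB, the spectrin of the red cell membrane, stood at 2.59, 1.13, 0.969 and 2.09 CPM in the early tumours and 0.467, 0.516, 0.888, 0.739 and 0.529 CPM in the late tumours. SPTB had a log2 fold change of -1.42 (SE 0.44; edgeR unadjusted p = 0.00636, adjusted p = 0.736). Every late tumour lay below every early tumour, at low levels. HBA1, an alpha globin, stood at 74.3, 93.3, 14.7 and 58.6 CPM in the early tumours and 5.40, 11.9, 47.9, 37.2 and 5.54 CPM in the late tumours. Late tumours 3, 7 and 31 lay below every early tumour and late tumours 23 and 25 above early tumour 12. TAL1, a transcription factor of red cell precursors and of endothelium that both lists hold, stood at 4.63, 7.66, 2.57 and 4.75 CPM in the early tumours and 0.831, 1.497, 2.52, 4.48 and 1.11 CPM in the late tumours. TAL1 had a log2 fold change of -1.23 (SE 0.45; edgeR unadjusted p = 0.0156, adjusted p = 0.736). All late tumours but tumour 25 lay below every early tumour. HEMGN, a nuclear protein of blood precursors, ran differently, highest in late tumour 3, at 120.3, 255, 260.1 and 95.0 CPM in the early tumours and 304, 199, 201, 289 and 230.4 CPM in the late tumours.

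All 66 tested ribosomal protein genes had a lower fitted level in late tumour, with a median of -0.42, yet 0 did so at an unadjusted p under 0.05 (20 without early tumour 11, 12 without late tumour 25 and 3 without early tumour 12), and the median was -0.02 without early tumour 9 and late tumour 3. Ribosomal protein genes are known to be expressed together. RPS24, a protein of the small subunit, stood at 3954, 1392, 1505 and 3199 CPM in the early tumours and 619, 2356, 2339.7, 2469 and 1411 CPM in the late tumours. RPL6, of the large subunit, had the smallest p of the list at an edgeR log2 fold change of -0.49, and stood at 2246, 1079, 1097 and 1985 CPM in the early tumours and 952, 1119, 1111, 1412 and 1119 CPM in the late tumours. Early tumours 9 and 21 exceeded every late tumour in both, and early tumours 11 and 12 lay inside the late range. The summed level was 38911 to 101287 CPM in early tumour, 30910.5 to 77084 in late tumour and 53557 to 82743 in normal ovary. EEF1A1, the elongation factor that brings transfer RNA to the ribosome, stood at 13946, 6556, 6881 and 13564 CPM in the early tumours and 5677, 7767, 8472, 11719 and 7393 CPM in the late tumours, in a similar order. EIF2B1, a subunit of an initiation factor, ran against it, at 55.4, 53.3, 47.0 and 53.5 CPM in the early tumours and 71.9, 67.8, 66.4, 64.2 and 64.4 CPM in the late tumours. EIF2B1 had a log2 fold change of 0.35 (SE 0.13; edgeR unadjusted p = 0.0177, adjusted p = 0.736). Every late tumour lay above every early tumour.

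Several genes of protein folding and breakdown stood slightly higher in late tumour. Chaperone genes had 37 of 44 members higher with a median of 0.14 (0.11 without early tumour 9 and late tumour 3), 4 of them at an unadjusted p under 0.05 (HSP90AA1, HSPB9, DNAJA4 and DNAJB6), and HSP90AB1 was lower at that p. Over all genes tested, 2.39% were higher and 3.96% lower at that p. The higher count was 7 without early 11, 2 without early 12, early 21, late 3, late 25 or late 31 and 1 without early 9 or late 23, and the lower count was 2 without early 11 and 0 without early 9, late 3, late 7, late 23 or late 31. HSPB9, a small heat shock protein, had the smallest p, at 28.6, 68.9, 39.2 and 33.2 CPM in the early tumours and 70.8, 51.3, 103, 132 and 62.1 CPM in the late tumours. HSPB9 had a log2 fold change of 0.98 (SE 0.31; edgeR unadjusted p = 0.00673, adjusted p = 0.736). Early tumour 11 was above late tumours 7 and 31, and the other 3 early tumours were below every late tumour. HSP90AA1, the inducible HSP90, had a log2 fold change of 0.43 (SE 0.20; edgeR unadjusted p = 0.0457, adjusted p = 0.736), with late tumours 7, 23, 25 and 31 above every early tumour and late tumour 3 among them. Proteasome genes had 23 of 36 members higher with a median of 0.07. At an unadjusted p under 0.05, 3 were higher (PSMA2, PSMA3 and PSMD6), where 2.39% of all genes were. This count was 7 without early 11, 1 without early 12, late 3 or late 23 and 0 without early 21. PSMA2, a subunit of the proteasome core, stood at 156, 179.7, 168 and 142 CPM in the early tumours and 201, 203, 227, 215 and 182 CPM in the late tumours. PSMA2 had a log2 fold change of 0.35 (SE 0.13; edgeR unadjusted p = 0.0146, adjusted p = 0.736). Every late tumour was above every early tumour.

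Genes of energy metabolism had medians near that of all genes. Nuclear genes of the respiratory chain had 31 of 47 members higher and a median of 0.08, and UQCR10, a small subunit of complex III, stood at 144, 143, 146 and 124 CPM in the early tumours and 151, 151, 168, 223 and 144 CPM in the late tumours. Glycolysis and hypoxia genes had 22 of 35 members lower with a median of -0.04. GAPDH stood at 3059.9 ± 404 CPM in the 4 early tumours (mean ± SD) and 2596 ± 621 in the 5 late ones and ENO1 at 3089 ± 351 CPM in the 4 early tumours (mean ± SD) and 2988 ± 394 in the 5 late ones, both enzymes of glycolysis. SLC2A1, the main glucose transporter of many tumours, stood at 43.1, 59.6, 52.5 and 51.8 CPM in the early tumours and 68.4, 72.3, 66.9, 75.6 and 55.0 CPM in the late tumours. SLC2A1 had a log2 fold change of 0.39 (SE 0.13; edgeR unadjusted p = 0.0112, adjusted p = 0.736). All late tumours but tumour 31 lay above every early tumour. EPAS1, the hypoxia factor HIF-2 alpha that endothelium makes, stood at 216, 60.6, 90.9 and 181 CPM in the early tumours and 69.5, 108, 96.3, 78.7 and 81.3 CPM in the late tumours. EPAS1 had a log2 fold change of -0.66 (SE 0.29; edgeR unadjusted p = 0.0398, adjusted p = 0.736). Against the late range, early tumours 9 and 21 stood above it, early tumour 11 below it and early tumour 12 inside it. Cholesterol synthesis genes had 11 of 20 members higher with a median of 0.08, and ACAT2, their most abundant member, stood at 359.7 ± 91.7 CPM in the 4 early tumours (mean ± SD) and 403 ± 56.0 in the 5 late ones. The 13 listed genes encoded in mitochondria were not analysed, because 0 of them were in the expression table under the symbols used. This left 40 lists with tested members.

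Most genes of cell division had a higher fitted level in late tumour, with medians near 0 once early tumour 9 and late tumour 3 were left out together. Mitosis genes had 31 of 35 members higher with a median of 0.21, and 0.00 without these 2 tumours; replication genes had 32 of 41 higher with a median of 0.14, and -0.01 without them. At an unadjusted p under 0.05, 1 mitosis gene and 0 replication genes were higher; the mitosis count was 4 without early 12, 3 without early 11, 2 without late 23, late 25 or late 31 and 0 without early 9 or early 21. That gene, SPC25 of the kinetochore complex that holds chromosomes to the spindle, stood at 43.7, 58.0, 63.6 and 45.7 CPM in the early tumours and 90.1, 68.2, 76.9, 74.4 and 70.2 CPM in the late tumours. SPC25 had a log2 fold change of 0.53 (SE 0.20; edgeR unadjusted p = 0.0181, adjusted p = 0.736). Every late tumour stood above every early tumour. CCNB1, the cyclin that drives entry into mitosis, stood at 1445, 2127, 1843 and 1377 CPM in the early tumours and 2715, 1894, 1697, 1759 and 2441 CPM in the late tumours, and CDK1, the kinase it activates, at 266, 417, 372 and 268 CPM in the early tumours and 619.5, 354, 282, 298 and 423 CPM in the late tumours. Late tumour 3 was highest for both, and early tumours 9 and 21 were the lowest. TYMS, which makes thymidylate for DNA, had the smallest p of the replication list, at 295, 459, 429.7 and 206 CPM in the early tumours and 591, 417, 496, 474 and 379 CPM in the late tumours, with early tumours 9 and 21 again lowest.

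Oocyte genes ran with the division genes. Of 26 tested members 22 had a higher fitted level in late tumour, with a median of 0.17 and -0.05 without early tumour 9 and late tumour 3. BTG4, which clears maternal messenger RNA in the egg, stood at 219, 475, 280.4 and 242 CPM in the early tumours and 559, 364, 263, 239 and 419.8 CPM in the late tumours. H1FOO, the linker histone of the oocyte, stood at 72.9, 310.5, 168 and 106 CPM in the early tumours and 393, 197, 182, 217 and 229 CPM in the late tumours, and DAZL, an RNA-binding protein of germ cells, at 172, 223, 215 and 199.7 CPM in the early tumours and 445, 242, 251, 173 and 229 CPM in the late tumours. Late tumour 3 held the highest value of all 3, with early tumour 11 and late tumour 31 next for BTG4. ZP1, an egg-coat protein that the chicken liver also makes, was the one member lower at an unadjusted p under 0.05 (0 without early 9 or early 21), at 95.2, 19.7, 15.8 and 88.0 CPM in the early tumours and 2.44, 35.6, 8.14, 23.7 and 7.70 CPM in the late tumours. ZP1 had a log2 fold change of -1.82 (SE 0.70; edgeR unadjusted p = 0.0208, adjusted p = 0.736). It was highest in early tumours 9 and 21. Granulosa and theca genes had 15 of 21 members higher with a median of 0.18 and 0 at an unadjusted p under 0.05. The median was 0.01 without early tumour 11, 0.07 without late tumour 25, 0.10 without late tumour 3 and 0.04 without early tumour 9 and late tumour 3. CYP19A1, the aromatase that makes oestrogen, stood at 253, 122, 488 and 343 CPM in the early tumours and 174, 558, 459, 342 and 195 CPM in the late tumours, FSHR, the receptor for follicle-stimulating hormone, at 56.9, 72.1, 49.0 and 51.8 CPM in the early tumours and 95.0, 54.1, 78.8, 80.1 and 78.5 CPM in the late tumours, and FOXL2, the transcription factor of granulosa cells, at 165, 151, 318 and 238 CPM in the early tumours and 304, 134, 148, 167 and 276 CPM in the late tumours. The stages overlapped in all 3.

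Genes that mark ovarian carcinoma had 13 of 17 tested members higher in late tumour, with a median of 0.13 (0.15 without early tumour 9 and late tumour 3) and 2 at an unadjusted p under 0.05 (4 without early 11, 1 without early 9, early 21, late 7, late 23 or late 25 and 0 without late 3). CD24, a surface glycoprotein of carcinoma and progenitor cells, stood at 304, 591, 560.0 and 343 CPM in the early tumours and 753, 577, 624, 610.0 and 579.6 CPM in the late tumours. CD24 had a log2 fold change of 0.48 (SE 0.22; edgeR unadjusted p = 0.0494, adjusted p = 0.736). Early tumours 9, 12 and 21 were below all late tumours and early tumour 11 was inside the late range. HOXA10, a homeobox gene of the reproductive tract, stood at 3.97, 7.02, 4.80 and 1.51 CPM in the early tumours and 27.5, 28.1, 9.47, 4.06 and 3.13 CPM in the late tumours. HOXA10 had a log2 fold change of 1.74 (SE 0.67; edgeR unadjusted p = 0.0209, adjusted p = 0.736). Late tumours 3, 7 and 23 stood above every early tumour and late tumours 25 and 31 among them. Of 24 ovarian cancer driver genes 13 were higher and 11 lower, with a median of 0.01 (-0.01 with relative log expression scaling), and 1 was higher at an unadjusted p under 0.05 (4 without early 11, 2 without early 12 and 0 without early 9). Epithelial adhesion genes had 11 of 18 members lower with a median of -0.09, and ELF3, an epithelial transcription factor, was the member with the smallest p, at 51.6, 4.86, 15.7 and 29.0 CPM in the early tumours and 1.77, 13.2, 11.2, 15.3 and 6.02 CPM in the late tumours. ELF3 had a log2 fold change of -1.41 (SE 0.60; edgeR unadjusted p = 0.0350, adjusted p = 0.736).

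Egg-white genes of the oviduct were scarce and patchy: 6 of the 12 listed genes that the table holds could be tested. TF, the gene of ovotransferrin, which carries iron in plasma and egg white, stood at 63.5, 12.2, 3.39 and 133 CPM in the early tumours and 0.779, 9.24, 3.60, 2.74 and 1.16 CPM in the late tumours. TF had a log2 fold change of -3.92 (SE 0.97; edgeR unadjusted p = 0.00123, adjusted p = 0.736). Early tumours 9 and 21 were far above the other 7, early tumour 11 was above every late tumour, and early tumour 12 was inside the late range. LYZ, lysozyme, ran the other way through a single library, at 0.717, 0.393, 0.0969 and 0.835 CPM in the early tumours and 0.156, 0.0516, 31.8, 0.422 and 0.289 CPM in the late tumours. LYZ had a log2 fold change of 3.67 (SE 1.54; edgeR unadjusted p = 0.0314, adjusted p = 0.736). AVD, avidin, stood at 7.88, 1.82, 1.502 and 8.82 CPM in the early tumours and 0.623, 6.09, 15.7, 9.60 and 0.915 CPM in the late tumours, with late tumour 23 the highest. Cilium genes had 15 of 28 members higher with a median of 0.03, and CCNO, which drives the making of cilia, stood at 148, 315, 479 and 175 CPM in the early tumours and 361, 212, 248, 538 and 329.7 CPM in the late tumours.

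In the Wnt pathway, ligands bind Frizzled receptors and coreceptors, and secreted proteins hold them back. Of 49 tested members 30 were lower in late tumour with a median of -0.12, 9 at an unadjusted p under 0.05 and 1 higher at that p. Over all genes tested, 3.96% were lower and 2.39% higher at that p. The 9 lower members were the ligands WNT5A and WNT16, the receptors FZD1, FZD4 and FZD5, the secreted modulators DKK3, FRZB and RSPO1, and the target AXIN2. Without early tumour 21 the count was 3, without early tumour 9 or late tumour 3 it was 4, without late tumour 31 it was 5, without early tumour 11 it was 14, and without early tumour 9 and late tumour 3 together it was 1. AXIN2, which the pathway itself induces, stood at 10.2, 2.46, 4.07 and 12.9 CPM in the early tumours and 2.29, 2.37, 3.75, 3.06 and 2.98 CPM in the late tumours. AXIN2 had a log2 fold change of -1.35 (SE 0.43; edgeR unadjusted p = 0.00669, adjusted p = 0.736). FZD1, a receptor, stood at 26.1, 5.01, 8.87 and 25.3 CPM in the early tumours and 5.76, 6.45, 7.64, 5.75 and 8.38 CPM in the late tumours. FZD1 had a log2 fold change of -1.26 (SE 0.42; edgeR unadjusted p = 0.00895, adjusted p = 0.736). Early tumours 9, 12 and 21 lay above every late tumour for both; early tumour 11 was inside the late range for AXIN2 and the lowest of all for FZD1. DKK3, a secreted protein related to the Wnt inhibitors, stood at 333, 189, 196 and 318 CPM in the early tumours and 128, 197, 154, 189 and 176 CPM in the late tumours. DKK3 had a log2 fold change of -0.62 (SE 0.24; edgeR unadjusted p = 0.0217, adjusted p = 0.736), with early tumours 9 and 21 alone above the late range. RYK, a coreceptor, was the one higher member (4 without early 11, 3 without early 12 or late 31, 2 without late 7 or late 23 and 0 without early 9, early 21 or late 3), at 428, 482, 520.5 and 377 CPM in the early tumours and 771, 591, 602, 559.6 and 647 CPM in the late tumours. RYK had a log2 fold change of 0.49 (SE 0.20; edgeR unadjusted p = 0.0265, adjusted p = 0.736), with every late tumour above every early tumour. WNT4, a ligand needed for ovarian development, stood at 251, 409.7, 518 and 273 CPM in the early tumours and 728, 383, 362, 579.5 and 500.4 CPM in the late tumours.

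The TGF-beta and BMP list had 23 members higher and 24 lower, with a median of -0.01 (0.02 under library-size scaling). At an unadjusted p under 0.05, 3 members were lower, TGFBR2, ENG and SMAD3, where 3.96% of all genes were. That count was 12 without early 11, 8 without early 12, 5 without late 7, 1 without late 3 and 0 without early 9 or early 21. TGFBR2, the receptor that binds TGF-beta, stood at 36.0, 20.9, 17.6 and 38.4 CPM in the early tumours and 14.0, 24.3, 18.7, 12.8 and 20.8 CPM in the late tumours. TGFBR2 had a log2 fold change of -0.64 (SE 0.25; edgeR unadjusted p = 0.0248, adjusted p = 0.736). Early tumours 9 and 21 were above every late tumour. ID1, a target of BMP signals, stood at 87.6, 184, 121 and 98.1 CPM in the early tumours and 276, 134, 100.4, 147 and 128 CPM in the late tumours, highest in late tumour 3. Immediate early genes had 15 of 26 members higher with a median of 0.10. EGR4, a transcription factor induced by growth signals, was at low levels of 0.661, 0.786, 1.70 and 0.626 CPM in the early tumours and 1.77, 2.12, 1.73, 2.11 and 2.17 CPM in the late tumours. EGR4 had a log2 fold change of 1.06 (SE 0.39; edgeR unadjusted p = 0.0158, adjusted p = 0.736). Every late tumour was above every early one, but early tumour 12 (1.70 CPM) lay barely under late tumour 23 (1.73 CPM). DUSP1, a phosphatase that ends such signals, stood at 187, 577, 283 and 272 CPM in the early tumours and 635, 366, 319, 336 and 439 CPM in the late tumours.

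The genes with the smallest p-values across the whole table are given next, whether or not a list held them. Among those higher in late tumour, MINAR1 came first, a membrane protein that acts on NOTCH2 in human cells. It stood at 5.51, 5.50, 4.60 and 3.70 CPM in the early tumours and 14.3, 7.95, 6.61, 18.7 and 10.9 CPM in the late tumours, every late tumour above every early one. The log2 fold change of 1.27 (SE 0.30; edgeR unadjusted p = 0.000721, adjusted p = 0.736) did not pass in edgeR, and MINAR1 rose by DESeq2 (DESeq2 adjusted p = 0.0369, range over all alternatives 0.0369 to 1.000). CYB5R2, a cytochrome b5 reductase, stood at 34.7, 35.5, 37.5 and 38.2 CPM in the early tumours and 48.8, 47.5, 46.5, 45.9 and 46.7 CPM in the late tumours. The late tumours lay in a narrow band above all early tumours, and normal ovary, at 54.0, 50.3, 58.4 and 54.1 CPM, lay above every tumour. The log2 fold change of 0.37 (SE 0.11; edgeR unadjusted p = 0.00384, adjusted p = 0.736) was the smallest in size among the DESeq2 calls (DESeq2 adjusted p = 0.0369, range over all alternatives 0.0369 to 1.000).

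CCDC28A, which encodes a coiled-coil protein, stood at 25.6, 23.7, 28.4 and 24.3 CPM in the early tumours and 40.6, 38.6, 40.1, 34.0 and 36.3 CPM in the late tumours. CCDC28A had a log2 fold change of 0.57 (SE 0.15; edgeR unadjusted p = 0.00169, adjusted p = 0.736). CDCA7L, a nuclear protein related to a target of MYC, stood at 83.1, 89.4, 87.9 and 82.1 CPM in the early tumours and 136, 108, 127, 106 and 114 CPM in the late tumours. CDCA7L had a log2 fold change of 0.46 (SE 0.12; edgeR unadjusted p = 0.00176, adjusted p = 0.736). GRIP2, a scaffold protein that binds glutamate receptors, stood at 17.1, 21.5, 22.1 and 15.3 CPM in the early tumours and 33.7, 25.2, 28.5, 34.0 and 28.1 CPM in the late tumours. GRIP2 had a log2 fold change of 0.65 (SE 0.18; edgeR unadjusted p = 0.00268, adjusted p = 0.736). In all 3, every late tumour was above every early tumour. The same held for MPC1L, annotated as a carrier of pyruvate into mitochondria, for AK9, an adenylate kinase, for INIP, a subunit of a complex that binds single-stranded DNA, and for LOC107053300, an uncharacterised gene. Their log2 fold changes were 0.62, 1.35, 0.43 and 1.44, with edgeR unadjusted p-values of 0.00236, 0.00377, 0.00401 and 0.00201 and an adjusted p of 0.736 each. LOC121106517, uncharacterised, had 0 counts in all 4 early tumours and 13, 24, 0, 10 and 56 in the late tumours. Its late mean of 1.03 CPM was at least 26.8-fold higher than the floor of 3 counts over the 4 early libraries (DESeq2 adjusted p = 0.00281, range over all alternatives 0.00281 to 1.000), but late tumour 23 had 0 as well, and normal ovary held 32, 82, 147 and 107 counts.

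Among genes lower in late tumour, 4 of the 10 with the smallest p, among genes whose average log2 CPM is 1 or more, lie on one chromosome in the RefSeq annotation of assembly GRCg7b, which holds the chicken MHC and the MHC-Y region: MHCY11, MHCY10, LOC417058 and LOC121106934. The share of all tested genes on that chromosome was not counted, so the 4 of 10 have no background to be set against. MHC-Y is a cluster of class I-like and class II-like genes that varies between chickens. MHCY11, a class I-like gene of the cluster, stood at 59.5, 7.32, 1.21 and 43.0 CPM in the early tumours and 0.935, 2.74, 1.97, 0.791 and 0.385 CPM in the late tumours. Early tumours 9, 11 and 21 lay above every late tumour and early tumour 12 inside the late range. Normal ovary stood at 27.2, 25.6, 2.07 and 12.3 CPM, overlapping both stages. The log2 fold change of -4.34 (SE 0.98; edgeR unadjusted p = 0.000566, adjusted p = 0.736) passed in DESeq2 only, where MHCY11 fell (DESeq2 adjusted p = 0.0269, range over all alternatives 0.0269 to 1.000). LOC417058 stood at 40.5, 5.40, 6.40 and 32.9 CPM in the early tumours and 2.29, 5.32, 5.57, 2.90 and 3.18 CPM in the late tumours. LOC417058 had a log2 fold change of -2.46 (SE 0.57; edgeR unadjusted p = 0.000689, adjusted p = 0.736), and passed in DESeq2 (DESeq2 adjusted p = 0.0269, range over all alternatives 0.0269 to 1.000). Its late tumours lay below early tumours 9, 12 and 21, and early tumour 11 inside their range. LOC121106934 stood at 18.7, 4.17, 1.74 and 14.6 CPM in the early tumours and 0.571, 0.877, 2.96, 0.264 and 1.40 CPM in the late tumours. LOC121106934 had a log2 fold change of -3.001 (SE 0.72; edgeR unadjusted p = 0.000915, adjusted p = 0.736), and passed in DESeq2 (DESeq2 adjusted p = 0.0269, range over all alternatives 0.0269 to 1.000), with early tumour 12 inside the late range. MHCY10 stood at 7.66, 2.01, 1.99 and 8.35 CPM in the early tumours and 0.156, 1.08, 1.28, 0.211 and 1.54 CPM in the late tumours. MHCY10 had a log2 fold change of -2.53 (SE 0.63; edgeR unadjusted p = 0.00133, adjusted p = 0.736), with every late tumour below every early one, and did not pass in DESeq2 (adjusted p = 0.0725). The genes of this cluster resemble each other closely, the counting of shared reads is not given in the sources used here, and early tumours 9 and 21 held the highest values of all 4. These differences are therefore uncertain, and the 4 genes may not be separate observations.

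**Figure D5:**
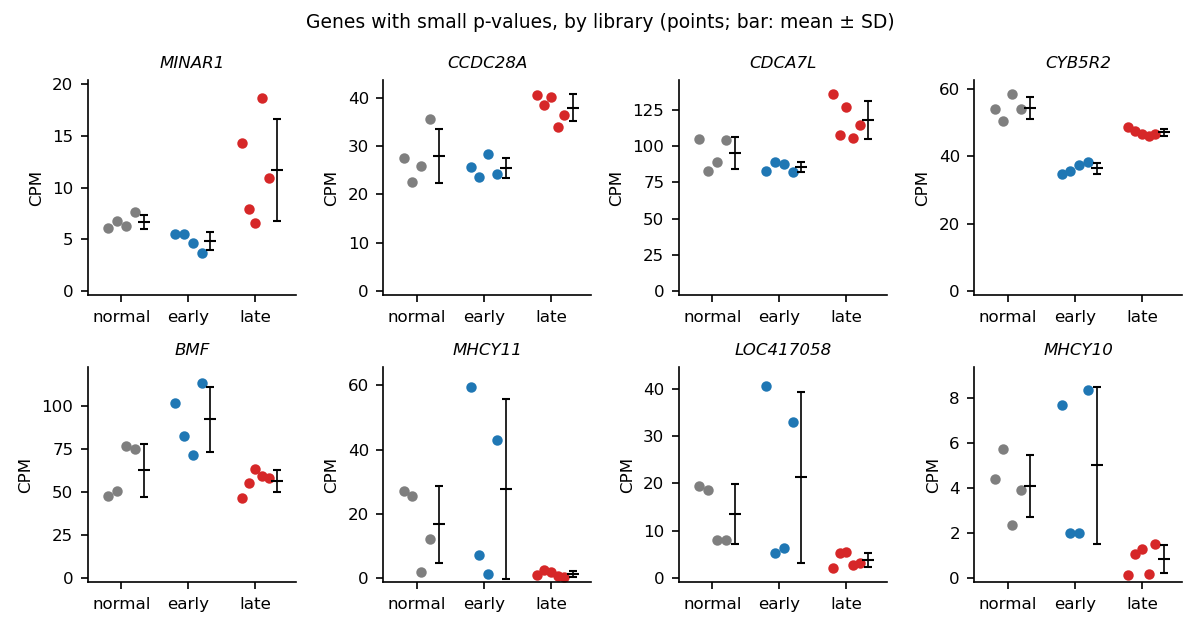
CPM of 8 genes with small p-values in each library (points) of normal ovary (grey, n = 4), early tumour (blue, n = 4) and late tumour (red, n = 5), with bars for the mean ± SD; the y axes start at 0. In MINAR1, CCDC28A, CDCA7L, CYB5R2, BMF and MHCY10 the stages do not overlap, while early tumour 12 lies among the late tumours for MHCY11 and early tumour 11 lies among them for LOC417058.

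BMF, a protein that promotes cell death, stood at 102, 82.4, 71.6 and 113 CPM in the early tumours and 46.5, 55.3, 63.3, 59.6 and 58.5 CPM in the late tumours. BMF had a log2 fold change of -0.70 (SE 0.18; edgeR unadjusted p = 0.00167, adjusted p = 0.736). ARHGAP6, which switches off a small GTPase, stood at 27.9, 18.3, 19.3 and 26.2 CPM in the early tumours and 11.7, 15.3, 11.9, 14.0 and 16.2 CPM in the late tumours. ARHGAP6 had a log2 fold change of -0.73 (SE 0.19; edgeR unadjusted p = 0.00175, adjusted p = 0.736). Every late tumour was below every early tumour in both, and the same held for the uncharacterised LOC776594 and LOC112533185, with log2 fold changes of -0.76 and -1.68 at edgeR unadjusted p-values of 0.000947 and 0.000915 (adjusted p = 0.736). LOC112533185 fell by DESeq2 (DESeq2 adjusted p = 0.0369, range over all alternatives 0.0369 to 1.000). LUZP2, a leucine zipper protein, stood at 15.3, 1.72, 1.16 and 14.1 CPM in the early tumours and 0.935, 0.877, 1.38, 2.00 and 1.16 CPM in the late tumours. LUZP2 had a log2 fold change of -2.66 (SE 0.69; edgeR unadjusted p = 0.00169, adjusted p = 0.736). Early tumours 9 and 21 alone were high, and the other 7 tumours overlapped. A further DESeq2 call, LOC121107023, is annotated as ribosomal RNA and was read in a single tumour: late tumour 25 held 870 counts and the other 8 tumours 0, while normal ovary held 7519, 4217, 3055 and 778 (DESeq2 adjusted p = 6.25e-07, range over all alternatives 6.25e-07 to 1.00). That call rests on 1 library.

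Single tumours were also read for the genes that stood highest in them. For every library the 3 tested genes standing farthest above the other 8 tumours were taken, 27 in all, of which 9 are uncharacterised. This rule gives each tumour 3 genes, however small the gap. At 10 CPM or more, early tumour 12 had 0 genes over 1 log2 unit above all other tumours, and late tumour 7 had 1. Early tumour 9 held 495 CPM of TCF24, a transcription factor, against 56.5 at most elsewhere, and 11.02 CPM of APOD, a lipid carrier, against 2.27. TCF24 also reached 418 and 619.7 CPM in normal ovaries 3 and 4. Early tumour 21 held 15.1 CPM of MBP, the myelin protein, against 4.52, 570.0 of MGP, an inhibitor of calcification, against 219, and 14.8 of FAM107A, an actin-associated protein, against 6.17. Early tumour 11 held 12.3 CPM of FHAD1 against 4.43. In early tumour 12 the genes included CYP2AB1 (11.1 CPM against 7.02), a cytochrome P450, and ADCK2 (25.01 against 16.3), a kinase-like protein.

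The genes of late tumour 23 were LYZ, at 31.8 CPM against 0.835 at most in the other tumours, CST7, a protease inhibitor, at 18.5 against 1.20, and S100A12, a calcium-binding protein, at 16.7 against 2.22. The mixed list of heterophil and thrombocyte genes, of which 9 of 26 were tested, had a score of 0.17 in this tumour, inside the range of the others. Which cells made LYZ, CST7 and S100A12 was not tested. Late tumour 25 held 109 CPM of MMP9 and 11.9 CPM of INHBB, a subunit of activin and inhibin, against 3.54 elsewhere. Late tumour 31 held 24.3 CPM of CLDN15, a tight-junction protein of the intestine, against 7.76, and 23.7 CPM of FGG, a fibrinogen chain, against 10.7. In late tumour 3 NUP210, a protein of the nuclear pore, reached 177 CPM against 67.2. In late tumour 7 HIST1H4D, a histone gene with near-identical copies and so of uncertain count, reached 35.5 CPM against 16.2. The 10 genes with the largest SD of log2 CPM over the 9 tumours, among genes with an average log2 CPM of at least 1, were all uncharacterised. In 9 of them at least 1 tumour had 0 counts, and 4 held identical counts in every tumour, so their counts are uncertain.

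Genes of liver, intestine, fat, nerve and skeletal muscle, tissues that a sample could also hold, were read in both stages. Among the 30 liver and yolk genes, 13 had fewer than 10 counts in all tumours, and ALB, the gene of albumin, reached at most 5.73 CPM in early and 1.28 CPM in late tumour. APOA1, the main protein of high-density lipoprotein, which many chicken tissues make, stood at 10158, 1470.4, 2179 and 8404 CPM in the early tumours and 751, 3201, 3333, 3719.6 and 1802 CPM in the late tumours, and HPX, which binds haem, at 2456, 105, 346 and 1485 CPM in the early tumours and 143, 999, 241, 392 and 172 CPM in the late tumours. Both were highest in early tumours 9 and 21. Among the 18 intestinal genes, 9 had fewer than 10 counts in all tumours; ANPEP, an aminopeptidase that stroma also makes, stood at 67.8, 11.9, 23.1 and 89.5 CPM in the early tumours and 5.92, 24.5, 15.5, 22.8 and 13.9 CPM in the late tumours. ANPEP had a log2 fold change of -1.54 (SE 0.51; edgeR unadjusted p = 0.00972, adjusted p = 0.736). Fat cell genes had 10 of 19 members higher with a median of 0.02 that was -0.00472 with relative log expression scaling. CD36, a fatty acid receptor of fat and endothelium, stood at 78.0, 8.94, 13.4 and 28.4 CPM in the early tumours and 2.70, 14.6, 10.4, 11.8 and 11.9 CPM in the late tumours. CD36 had a log2 fold change of -1.65 (SE 0.60; edgeR unadjusted p = 0.0154, adjusted p = 0.736). Every late tumour lay below early tumours 9 and 21, and early tumours 11 and 12 lay inside the late range. Nerve and neuroendocrine genes had a median of -0.10, and UCHL1, a ubiquitin hydrolase of neurons and germ cells, stood at 650.1, 1109, 1131 and 673 CPM in the early tumours and 1251, 925, 919, 957 and 1154 CPM in the late tumours. Of 9 tested skeletal muscle genes 7 were lower with a median of -0.27; DES, desmin, stood at 310.3, 32.8, 48.9 and 139 CPM in the early tumours and 16.0, 84.1, 48.2, 224 and 53.8 CPM in the late tumours, lowest in late tumour 3.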

How the data were processed

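RNA of early-stage (4 samples) and late-stage (5 samples) ovarian tumour of hens was analysed, beside 4 samples of normal ovary. The authors deposited estimated counts for each gene, with no normalization. Of the values, 30.1% were not whole, and all were rounded for the tests. The authors also deposited TPM values, which ranked members by abundance. The sources used here do not give the counting program, strand setting, build or annotation. FastQC, BWA and GATK 3.3.0 are named, without a role, per the submitters' processing notes. The extraction protocol in the labels describes DNA, so how the RNA was prepared is not known. The labels list 2 library records per sample code without saying how they differ, and the deposited table has 1 column per code. MicroRNA data were not used here.

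All 13 libraries entered one edgeR 4.0.16 quasi-likelihood fit (R 4.3.3, TMM scaling, filterByExpr with a minimum count of 10, robust estimation), with late tested against early, and p-values were adjusted by Benjamini-Hochberg over 16130 genes. A difference was called at an adjusted p under 0.05. CPM were computed after TMM scaling, and an SE is that of the fitted log2 fold change. Total counts were 18754971 to 20118629 per tumour, and the common coefficient of variation within groups, over all 13 libraries, was 33.6%. For genes with few counts, such as MHCY11 with 8 counts in late tumour 31, counting error is not small against that spread. Alternatives were DESeq2 1.42.0, voom with quality weights (limma 3.58.1), other scalings and filters, the tumours alone, limma on log2(TPM + 1) and each tumour left out. Library measures were compared by exact two-sided permutation.

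The members and the 41 gene lists were chosen with earlier results of these data known; they were described by counts and medians, without a test of the list. A list's score in a library averages log2 CPM over the tested members and is centred on the 9 tumours. Genes were named by a rule: the 10 smallest edgeR p in each direction with an average log2 CPM of at least 1, every DESeq2 call, per list the 3 members with the highest mean TPM and the 2 with the smallest p, per tumour the 3 genes farthest above the others at 10 CPM or more, and the 10 most variable. A gene with at least 20 counts in every library of one stage and under 5 in every library of the other was also looked for, and there were 0. Members outside the rule are named where they make up a count or check the tissue, and were chosen after their values were seen. Of the genes under the rule, a few are not reported here. Leaving out early 9 and late 3 together was also chosen after seeing the data. Symbols of 25075 genes matched RefSeq (GRCg7b), used for names and gene types.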

Additional observations from a re-analysis of the deposited data

Results flagged for a closer look

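Within a stage, 22 of the 286 gene and stage combinations given above had one sample far from the others by Dixon's test on CPM. A chance rate of about 1 in 20 holds for normally spread values, which was not checked for CPM. It does not hold for genes chosen because one tumour stood above the others. On the CPM scale a low sample is also marked less easily than a high one. Late tumour 3 was the sample apart 7 times, always as the highest of the 5: CD24 (753 CPM against 577 to 624 in the other late tumours), APLN (143 CPM against 47.4 to 67.6), H1FOO (393 CPM against 182 to 229), DAZL (445 CPM against 173 to 251), EPCAM (1427 CPM against 958 to 1069), ID1 (276 CPM against 100.4 to 147) and NUP210 (177 CPM against 47.3 to 67.2). Late tumour 23 stood apart in LYZ (31.8 CPM against 0.0516 to 0.422), CST7 (18.5 CPM against 0.155 to 0.791) and S100A12 (16.7 CPM against 0.193 to 2.22). Late tumour 25 stood apart in LOC121107023 (45.9 CPM against 0), INHBB (11.9 CPM against 1.01 to 3.48) and MMP9 (109 CPM against 5.92 to 27.4). In late tumour 31 it was ENO1 (3666 CPM against 2654 to 2920.4) and CLDN15 (24.3 CPM against 2.22 to 4.75), and in late tumour 7 HIST1H4D (35.5 CPM against 9.10 to 16.2).

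Among the early tumours, tumour 9 stood apart in TCF24 (495 CPM against 6.48 to 56.5 in the other early tumours) and APOD (11.02 CPM against 0.783 to 1.11), tumour 11 in FHAD1 (12.3 CPM against 1.16 to 2.20), and tumour 12 in EGR4 (1.70 CPM against 0.626 to 0.786) and INHBB (3.54 CPM against 0.731 to 0.992). Tumour 21 was the lowest for UQCR10 (124 CPM against 143 to 146). Most of these marks fall on genes named because that same tumour exceeded the others, so that they follow from that choice. Late tumour 3 appears here as the highest alone, although 314 genes stood more than 1 log2 unit below every other tumour in it. No explanation was tested for any of them.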

How the results depend on the processing

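The count of genes called was 0 in edgeR and 9 in DESeq2, and 0 under voom, both other scalings, both other filters, the 9 tumours alone, limma on log2(TPM + 1) and with each tumour left out (lowest 0, highest 0); the cause of the difference between DESeq2 and edgeR was not tested. At an unadjusted p under 0.05 there were 993 genes with relative log expression scaling, 917 with library-size scaling, 1225 of 22009 without a filter, 590 of 10519 at 10 CPM in 4 tumours, 930 of 15788 in the tumours alone and 636 on log2(TPM + 1). Leaving out one tumour gave 321 to 2613, and 267 remained without early 9 and late 3 together, an alternative chosen after seeing the data. All 62 genes given with a fold change kept their direction under every alternative that could fit them, except LOC121107023, whose log2 fold change was 0 without late tumour 25 and at most 10.78 with another tumour left out. At 10 CPM in 4 tumours, 40 of the 62 genes were fitted, and without late tumour 23, 61 were. LYZ was high in late tumour 23 alone, at 31.8 CPM. The other late tumours had 0.0516 to 0.422 CPM of LYZ, and early tumour up to 0.835 CPM. The higher LYZ level in late tumour therefore rests on that library. Most of the 62 genes were named for small p-values in these same libraries, and the alternatives reuse nearly the same counts. Their kept direction therefore follows from that choice and is no separate support. No scaling moved the median of all genes by more than 0.0220 on the log2 scale, and log2(TPM + 1) put it at 0.06. List medians changed sign under a scaling in 4 of 40 lists and on leaving out a tumour in 14. With at least 1 count in place of 10, late tumours had 68.8 fewer genes detected on average (exact permutation p = 0.619) in place of 133. No paired analysis was possible because the early and late samples share no replicate numbers.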
